A study of Homo sapiens with 6 samples.

Results

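The ATP-binding cassette (ABC) genes described here are 28 named members of the family outside ABCG2 and the TAP genes, matched by Ensembl ID among the 60483 genes of each count table. Of these, 26 passed the filter on low counts, which 14900 genes passed in all. RNA-seq was run on DLD-1 cells, an established human colorectal adenocarcinoma line, 3 libraries after transfection with AHR siRNA and 3 after transfection with control siRNA, to find genes that depend on AHR. The product of AHR, the aryl hydrocarbon receptor, is a transcription factor switched on by small ligands. All cells were at passage 16-19 of the same line, and the sources used here give neither the siRNA sequences nor the time after transfection nor the origin of the replicates. The spread behind each p-value is therefore that of these libraries and may be technical. In bulk RNA, fewer cells of a kind and less RNA per cell cannot be told apart.

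ABC proteins bind and hydrolyse ATP, and most of them use it to move a substrate across a membrane. In the intestinal epithelium they are known for pumping drugs, bile salts and conjugates out of the cell, for moving lipids, and, in CFTR, for an ATP-gated chloride channel. Subfamilies E and F have ATP-binding domains and no membrane part, and act on ribosomes and translation.

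The library totals ran from 11567736 to 12937058 counts in AHR siRNA cells and from 13585529 to 15037145 counts in control siRNA cells. AHR itself stood at 95.8, 87.4 and 95.0 CPM (counts scaled to the size of the library) in AHR siRNA replicates 1 to 3 and at 117, 144 and 132 CPM in control siRNA replicates 1 to 3, so that 70.8% of the control level was left (edgeR adjusted p = 1.98e-05). Of 12 markers of colorectal epithelium, 10 were tested. Among them 1 was called higher and 6 lower, against 30.0% and 30.1% of all tested genes, and the summed level of the 12 was 8548 to 8846 CPM in AHR siRNA cells and 11218 to 12222 CPM in control siRNA cells. KRT8 and KRT18, which made up most of this sum, fell to 61.4% and 62.1% of control. The marker called higher was VIL1, at 450% of control, and KRT19, CDH17 and LGALS4 were not called. CEACAM5 and LGALS4 were close to the floor, and CDX1 and GPA33 did not pass the filter. The 7 fibroblast markers summed to 2.25 to 3.48 CPM in AHR siRNA cells and 2.13 to 2.99 CPM in control siRNA cells, with DCN, LUM and THY1 at 0. The 7 leukocyte markers summed to 2.16 to 2.79 CPM in AHR siRNA cells and 2.87 to 3.99 CPM in control siRNA cells, with MS4A1 among those at 0. The 5 endothelial markers summed to 2.24 to 2.51 CPM in AHR siRNA cells and 1.25 to 1.80 CPM in control siRNA cells, with KDR and EMCN at 0. The part of these markers in the results for ABC genes was not tested.

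The ABC genes moved in both directions, and as often as other genes did. Of the 26 tested, 7 were higher and 8 lower in AHR siRNA cells by edgeR's quasi-likelihood test at an adjusted p under 0.05 (57.7%), against 60.1% of all tested genes called. All genes split into 30.0% called higher and 30.1% called lower. The median log2 fold change of the 26 was 0.13, against 0.0065 over all tested genes, and it was 0.0065 without control siRNA replicate 1. With library totals in place of TMM scaling, 11 were higher and 8 lower. At a fitted fold of at least 1.5, 8 members were called, 4 higher (CFTR, ABCG1, ABCC5 and ABCD4) and 4 lower (ABCA12, ABCA5, ABCB10 and ABCC4), against 30.4% of all tested genes, 16.7% higher and 13.7% lower. For 19 of the 26 members every AHR siRNA library lay on the same side of every control library, against 63.7% of all tested genes.

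**Figure D1:**
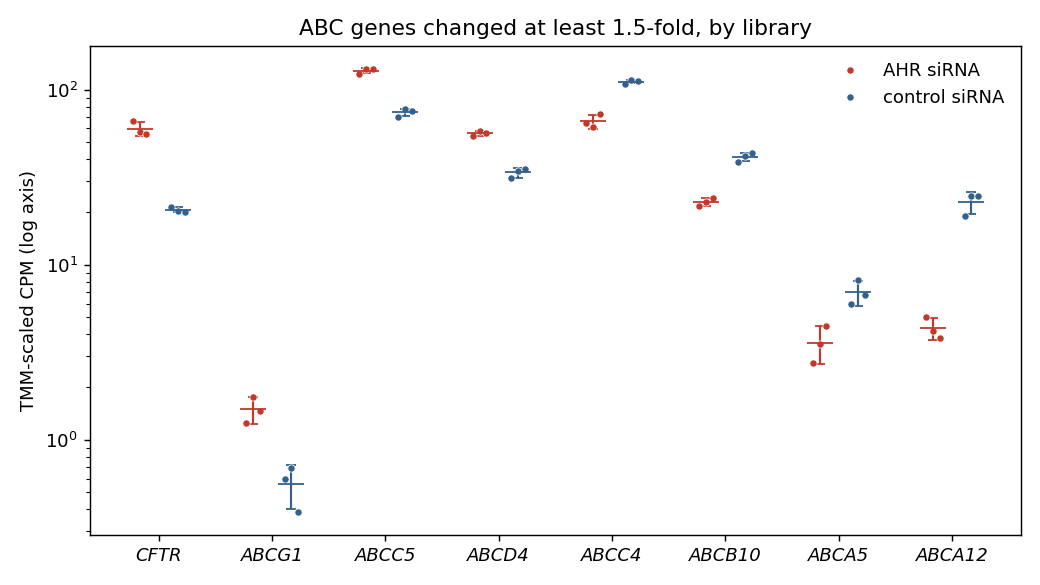
TMM-scaled CPM (log axis) of the 8 ABC genes called with a fitted fold of at least 1.5, with 3 libraries of AHR siRNA and 3 of control siRNA cells each. Points are libraries, and bars are the mean and SD. The groups do not overlap for any of these 8 genes, and of all 4535 genes called at that fold they overlap for 91.

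The promoters of the gene that rose most, CFTR, and of the genes that fell most in the lipid and the efflux groups, ABCA12 and ABCC4, show what lies at the starts of genes with opposite changes. Each is the RefSeq window of 300 bases, 250 before the start and 50 after, in GRCh38.p14. Capitals mark GCGTG on either strand (CACGC on the printed strand), the core of the element that AHR and its partner ARNT bind.
CFTR, chr7:117479775-117480074, plus strand: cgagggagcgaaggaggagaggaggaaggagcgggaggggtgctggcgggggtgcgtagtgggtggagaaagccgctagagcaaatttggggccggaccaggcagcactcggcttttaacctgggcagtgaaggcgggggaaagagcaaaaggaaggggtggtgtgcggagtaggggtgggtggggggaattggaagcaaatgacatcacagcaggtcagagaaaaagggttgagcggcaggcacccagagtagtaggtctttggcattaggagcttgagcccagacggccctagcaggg
ABCA12, chr2:215138577-215138876, minus strand: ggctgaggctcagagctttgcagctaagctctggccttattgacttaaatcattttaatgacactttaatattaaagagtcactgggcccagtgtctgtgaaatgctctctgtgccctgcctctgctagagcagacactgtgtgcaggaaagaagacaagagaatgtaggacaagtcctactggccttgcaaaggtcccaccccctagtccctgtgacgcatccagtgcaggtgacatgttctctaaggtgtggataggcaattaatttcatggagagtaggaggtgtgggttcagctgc
ABCC4, chr13:95301402-95301701, minus strand: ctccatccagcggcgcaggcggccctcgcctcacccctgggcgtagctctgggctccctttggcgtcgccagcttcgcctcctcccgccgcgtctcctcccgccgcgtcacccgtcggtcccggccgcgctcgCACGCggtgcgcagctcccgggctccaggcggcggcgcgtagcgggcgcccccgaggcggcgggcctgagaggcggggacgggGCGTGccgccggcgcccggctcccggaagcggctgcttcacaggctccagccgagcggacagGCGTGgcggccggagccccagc
The core was in neither the CFTR nor the ABCA12 window, and ABCC4 held it at positions 134, 217 and 279, counted from 1 at the 5′ end of the window.

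Windows were found for 24 of the 28 members. For each member and each tested gene only the first listed window was read, so any other start of the gene was not searched. The core occurred in 13 of these 24, against 36.5% of all 35116 RefSeq windows. The longer element TNGCGTG, which contains the core, occurred in 1 member, ABCB9, against 5.51% of all windows. The element TGACNNNGC, the antioxidant response element bound by NRF2, occurred in 7, against 13.3% of all windows. All windows include those of genes that were not tested. For the core the share among tested genes, given below, was higher than in all windows. For TNGCGTG and TGACNNNGC the share among tested genes was not computed. Of the 8 members called lower, 7 held the core (all but ABCA12), and of the 5 members called higher with a window, 1 held it, ABCC5. Of the 9 members not called with a window, 5 held it. Over all tested genes with a window the share was 48.0% among genes called higher, 53.7% among genes called lower and 50.1% among genes not called. The median GC content of the windows was 60.7% for the members called higher, 71.8% for those called lower and 68.3% for those not called. Over all tested genes it was 65% for those called higher, 66% for those called lower and 65% for those not called. A match to these letters is a description of the sequence and not a bound site.

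Among the 8 lipid and sterol transporters, the epidermal lipid transporter ABCA12 fell furthest, while the sterol exporter ABCG1 rose from a level near the floor. ABCA12 stood at 5.05, 4.19 and 3.82 CPM in AHR siRNA replicates 1 to 3, against 19.1, 24.6 and 24.5 CPM in control siRNA replicates 1 to 3. Every AHR siRNA library lay far below every control library, and the log2 fold change was -2.39 (SE 0.14, edgeR adjusted p = 7.28e-11). ABCA5, a transporter of endosomes and lysosomes, stood at 2.73, 3.53 and 4.48 CPM in AHR siRNA cells and 5.93, 8.21 and 6.69 CPM in control siRNA cells. It fell to 51.8% of control (log2 fold change -0.95, SE 0.19, edgeR adjusted p = 0.000318), with no overlap between the groups. By the GENCODE 29 annotation, 2.42% of its exon bases are shared with ABCA10.

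ABCG1, which loads cholesterol onto high-density lipoprotein particles, rested on 15, 24 and 20 counts in AHR siRNA cells and on 8, 10 and 5 counts in control siRNA cells. That is 1.24, 1.77 and 1.47 CPM in AHR siRNA cells, against 0.600, 0.690 and 0.385 CPM in control siRNA cells, with no overlap. Its log2 fold change was 1.40 (95% interval 0.66 to 2.14, edgeR adjusted p = 0.00220), a wide interval at this depth. ABCA1, the partner of ABCG1 in cholesterol efflux, had 9, 12 and 18 counts in AHR siRNA cells and 14, 5 and 5 counts in control siRNA cells, and the groups overlapped. Its log2 fold change of 0.74 was not called (95% interval -0.18 to 1.66, edgeR adjusted p = 0.155). Without control siRNA replicate 1, the library with 14 counts, it was called higher at 1.42 (edgeR adjusted p = 0.0136), so that 1 library decides the call.

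The most abundant of these genes were not called. ABCA7, a phospholipid transporter, stood at 93.6, 108 and 105 CPM in AHR siRNA cells and 75.3, 103 and 104 CPM in control siRNA cells. ABCA2, a lipid transporter of endolysosomes, stood at 63.2, 80.3 and 86.5 CPM in AHR siRNA cells and 55.0, 83.9 and 75.5 CPM in control siRNA cells. In both genes control siRNA replicate 1 was the lowest of the 6 libraries and the groups overlapped. The 95% intervals of their log2 fold changes ran from -0.09 to 0.33 for ABCA7 and from -0.15 to 0.36 for ABCA2, and both estimates turned slightly negative without that library (-0.020 and -0.057). With library totals alone ABCA7 was called higher (0.26, edgeR adjusted p = 0.0490). ABCA3, the surfactant lipid transporter, and ABCB4, which exports phosphatidylcholine in liver, averaged 1.44 and 3.16 CPM over the 6 libraries and were not called.

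**Figure D2:**
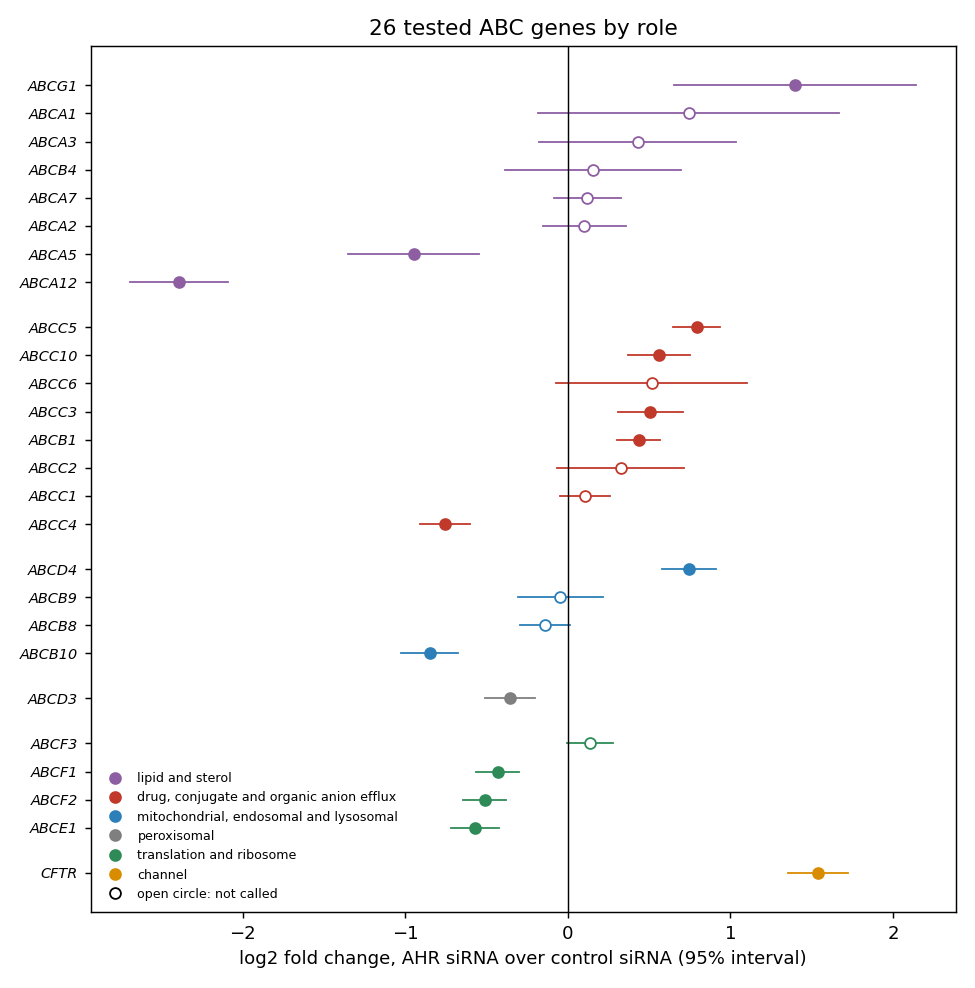
Log2 fold change of AHR siRNA over control siRNA for the 26 tested ABC genes, grouped by role, with 95% intervals from edgeR. Filled circles were called at an adjusted p under 0.05. ABCA12 lies lowest at -2.39 and CFTR highest at 1.54.

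Among the 8 pumps for drugs, conjugates and organic anions, 4 rose and 1 fell, against 30.0% of all tested genes called higher and 30.1% called lower. ABCC5 (MRP5), an exporter of cyclic nucleotides and nucleotide analogues, stood at 123, 131 and 130 CPM in AHR siRNA cells, against 69.8, 77.0 and 75.5 CPM in control siRNA cells. It rose to 173% of control with no overlap (log2 fold change 0.79, SE 0.07, edgeR adjusted p = 9.36e-09). ABCC4 (MRP4), which exports cyclic nucleotides, prostaglandins and bile acids, moved the other way. It stood at 64.1, 60.9 and 72.4 CPM in AHR siRNA cells and 108, 113 and 112 CPM in control siRNA cells, and fell to 59.3% (log2 fold change -0.75, SE 0.07, edgeR adjusted p = 5.39e-08). These transporters overlap in what they carry, and they lay on opposite sides of 0 in all 6 fits that left out a library.

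ABCB1 encodes P-glycoprotein, the classical multidrug pump. It stood at 431, 400.0 and 416 CPM in AHR siRNA cells and 308, 304 and 310.3 CPM in control siRNA cells, with every AHR siRNA library above every control library. It rose to 135% of control (log2 fold change 0.44, SE 0.06, edgeR adjusted p = 8.41e-06). ABCC3 (MRP3), the basolateral exporter of glucuronides and bile salts, rose to 142% (49.1 ± 6.0 CPM in AHR siRNA cells and 34.6 ± 3.3 CPM in control siRNA cells; SD, n = 3 each). ABCC10 (MRP7), a drug pump, rose to 148% (48.2 ± 6.0 CPM in AHR siRNA cells and 32.7 ± 1.9 CPM in control siRNA cells; SD, n = 3 each), just under the 1.5-fold used to choose genes for values in every library. In ABCC3 and in ABCC10, AHR siRNA replicate 1 was the lowest of its group and still above all control libraries.

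ABCC1 (MRP1), the glutathione-conjugate exporter, stood at 128, 129 and 139.9 CPM in AHR siRNA cells and 110.5, 126 and 132 CPM in control siRNA cells. The groups overlapped, and the log2 fold change of 0.11 was not called (95% interval -0.05 to 0.26, edgeR adjusted p = 0.228). It was called higher with upper-quartile factors (0.18, edgeR adjusted p = 0.0374) and with library totals alone (0.25, edgeR adjusted p = 0.0120). ABCC2 (MRP2), the apical conjugate pump, averaged 4.57 CPM over the 6 libraries and was not called at 0.32 (95% interval -0.06 to 0.71), but was called higher with library totals alone (0.47, edgeR adjusted p = 0.0411). ABCC6, an ATP-releasing transporter of liver and kidney, averaged 1.81 CPM and was not called at 0.51. ABCC6 has near-identical pseudogene copies, so its value is uncertain.

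Among the 4 tested transporters of mitochondria, endosomes and lysosomes, 1 rose and 1 fell, which is 50% called against 60.1% of all tested genes. ABCD4, which moves cobalamin (vitamin B12) out of the lysosome, stood at 54.3, 58.2 and 56.4 CPM in AHR siRNA cells and 31.1, 34.4 and 35.4 CPM in control siRNA cells. It rose to 168% of control with no overlap (log2 fold change 0.74, SE 0.08, edgeR adjusted p = 1.31e-07), and 7.12% of its annotated exon bases are shared with another gene of the same strand. ABCB10, a transporter of the inner mitochondrial membrane linked to heme synthesis, stood at 21.6, 22.7 and 24.1 CPM in AHR siRNA cells and 38.6, 41.5 and 43.2 CPM in control siRNA cells. It fell to 55.5% (log2 fold change -0.85, SE 0.08, edgeR adjusted p = 6.75e-08). Between libraries of a group its coefficient of variation was 5.44% in AHR siRNA cells and 5.56% in control siRNA cells.

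ABCB8, a mitochondrial transporter, averaged 50.3 ± 2.0 CPM in AHR siRNA cells and 55.4 ± 2.7 CPM in control siRNA cells (SD, n = 3 each) and was not called (log2 fold change -0.14, 95% interval -0.29 to 0.02, edgeR adjusted p = 0.114). ABCB9, a lysosomal peptide transporter, was not called at -0.05 (95% interval -0.31 to 0.21), and 24.5% of its annotated exon bases lie in genes of the opposite strand, so its reads are uncertain where strand was not used. ABCB6, a porphyrin transporter, did not pass the filter, with 8, 2 and 8 counts in AHR siRNA cells and 5, 9 and 13 counts in control siRNA cells. Of the peroxisomal fatty acid transporters, ABCD3 fell to 78.2% of control (88.8 ± 7.8 CPM in AHR siRNA cells and 113 ± 3 CPM in control siRNA cells; SD, n = 3 each; edgeR adjusted p = 0.000327). ABCD2 did not pass the filter, with 1 count in AHR siRNA replicate 3 and 0 in the other libraries.

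Of the 4 family members that act on translation and carry nothing across membranes, 3 were lower, against 30.1% of all tested genes. ABCE1, which splits ribosomes after termination, stood at 229, 194 and 204 CPM in AHR siRNA cells and 315, 302 and 313 CPM in control siRNA cells, and fell to 67.3% of control (log2 fold change -0.57, SE 0.07, edgeR adjusted p = 1.01e-06). Its fall lay just under 1.5-fold, and 11.9% of its annotated exon bases are shared with genes of the opposite strand. ABCF2, a ribosome-associated ATPase, fell to 70.1% (157 ± 1 CPM in AHR siRNA cells and 224 ± 4 CPM in control siRNA cells; SD, n = 3 each). ABCF1, which binds the initiation factor eIF2, fell to 74.1% (229.7 ± 2.5 CPM in AHR siRNA cells and 309.9 ± 12.1 CPM in control siRNA cells; SD, n = 3 each). In these 3 genes every AHR siRNA library lay below every control library. ABCF3 lay above its controls in every library, at 66.4 ± 1.8 CPM in AHR siRNA cells and 60.3 ± 0.7 CPM in control siRNA cells (SD, n = 3 each), and was not called (log2 fold change 0.14, edgeR adjusted p = 0.0907). It was called higher with upper-quartile factors (0.22, edgeR adjusted p = 0.0111) and with library totals alone (0.29, edgeR adjusted p = 0.00163).

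CFTR, the chloride and bicarbonate channel of the apical membrane, rose more than any other tested member. It stood at 66.4, 57.4 and 55.5 CPM in AHR siRNA replicates 1 to 3, against 21.3, 20.3 and 20.1 CPM in control siRNA replicates 1 to 3. The lowest AHR siRNA library was well above the highest control library, and the rise was 2.90-fold (log2 fold change 1.54, SE 0.09, edgeR adjusted p = 3.43e-11). Over the alternatives its log2 fold change ran from 1.46 to 1.69. Of its annotated exon bases, 0.631% are shared with genes of the opposite strand.

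Levels were also set on a scale of mean CPM per kb of exon, with exon lengths from GENCODE 29, for a rough comparison of genes with each other. The length counts all annotated exons of a gene, whether or not these cells use them. The order of genes therefore depends on the annotation, and the SD between libraries does not cover this. ABCB1 was the most abundant member in AHR siRNA cells at 71.6 ± 2.7 CPM per kb and the third in control siRNA cells at 52.9 ± 0.6 CPM per kb (SD, n = 3 each). ABCF1 was second in AHR siRNA cells at 50.8 ± 0.5 CPM per kb and first in control siRNA cells at 68.5 ± 2.7 CPM per kb (SD, n = 3 each). ABCF2 and ABCB1 differed by less than the SD of ABCF2 in control siRNA cells, at 53.7 ± 1.0 and 52.9 ± 0.6 CPM per kb (SD, n = 3 each). CFTR stood at 6.40 ± 0.62 and ABCA12 at 0.462 ± 0.067 CPM per kb in AHR siRNA cells (SD, n = 3 each). In control siRNA cells the levels of these genes differed by less than the SD of ABCA12, at 2.20 ± 0.07 CPM per kb for CFTR and 2.42 ± 0.34 CPM per kb for ABCA12 (SD, n = 3 each). The least abundant tested member was ABCA1, at 0.0866 CPM per kb in AHR siRNA cells and 0.0523 CPM per kb in control siRNA cells. Between libraries of a group, the 19 members with at least 10 CPM had a median coefficient of variation of 7.55% in AHR siRNA cells and 5.15% in control siRNA cells.

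**Figure D3:**
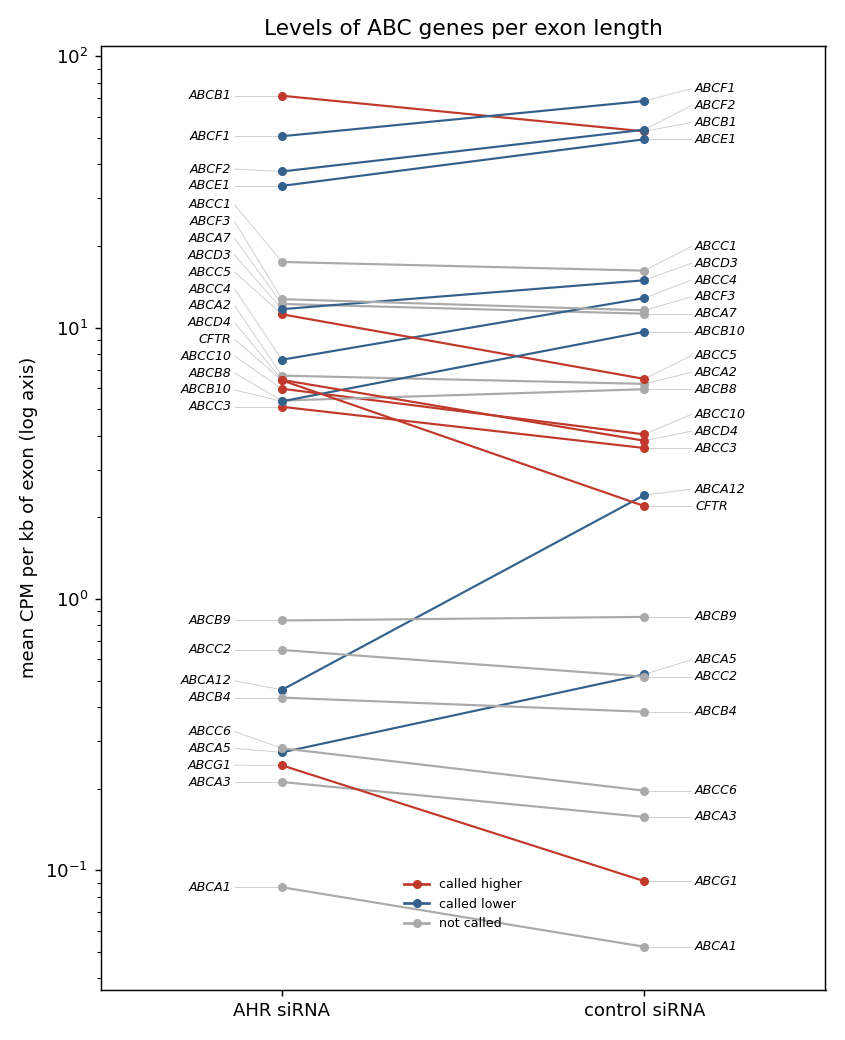
Mean CPM per kb of exon (log axis) of the 26 tested ABC genes in AHR siRNA and in control siRNA cells, joined by a line per gene and coloured by call. ABCB1 is highest on the left at 71.6 and ABCF1 highest on the right at 68.5, and the lines of CFTR and ABCA12 cross.

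Genes that work with these family members were called in both directions in each list below except translation and ribosome recycling partners, where none was higher. Each list is read against the 30.0% of tested genes called higher and the 30.1% called lower. Of 14 tested genes of CFTR partners and apical ion transport, 7 were higher and 3 lower, with a median log2 fold change of 0.24. SLC12A2, the basolateral sodium, potassium and chloride importer that feeds chloride secretion, rose to 178% of control (898 ± 51 CPM in AHR siRNA cells and 505 ± 20 CPM in control siRNA cells; SD, n = 3 each). The scaffold genes EZR and NHERF1, which tether CFTR to the apical cytoskeleton, fell to 58.6% and 70.5% of control.

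Of 16 genes of the liver X receptor (LXR) pathway and cholesterol handling, 7 were higher and 6 lower, with a median of 0.014. RXRB, a partner receptor of LXR, rose to 177% of control, while the sphingomyelinase gene SMPD1 and the cholesterol esterification gene SOAT1 fell to 51.1% and 48.9%. Of 11 tested xenobiotic sensors and co-factors, 2 were higher and 4 lower, with a median of -0.06. PPARA, the fatty acid sensor, rose to 189% of control, the gene of the antioxidant regulator NRF2, NFE2L2, fell to 68.1%, and HNF4A, a hepatocyte and enterocyte factor, fell to 64.3%. NR1I2, which encodes the drug sensor PXR, had 0 counts in all 6 libraries.

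Around the organelle transporters, the lists were mixed. Of 8 genes of cobalamin handling, 3 were higher and 3 lower, with a median of -0.09. The methionine synthase reductase gene MTRR fell to 49.6% of control, while the cobalamin carrier gene TCN2 and the mitochondrial mutase gene MMUT rose to 177% and 151%. Of 12 heme and mitochondrial iron genes, 5 were higher and 4 lower, with a median of -0.05. The heme synthesis gene CPOX fell to 30.0% of control (67.1 ± 3.2 CPM in AHR siRNA cells and 224 ± 7 CPM in control siRNA cells; SD, n = 3 each), and the heme oxygenase gene HMOX1 fell to 34.4%. Of 12 peroxisomal partners, 5 were higher and 2 lower, with a median of 0.14. The peroxisome assembly genes PEX16 and PEX5 rose to 163% and 148%, and the acyl-CoA synthetase gene ACSL1 fell to 74.8%.

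Of 11 translation and ribosome recycling partners, 8 were lower and 3 were not called, with a median of -0.35. EIF2S1, the alpha subunit of the initiation factor that ABCF1 binds, fell to 65.0% of control. EIF3J, an initiation factor subunit that also acts in recycling, fell to 67.9%, and GSPT1, the termination factor eRF3a, fell to 71.5%.

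**Figure D4:**
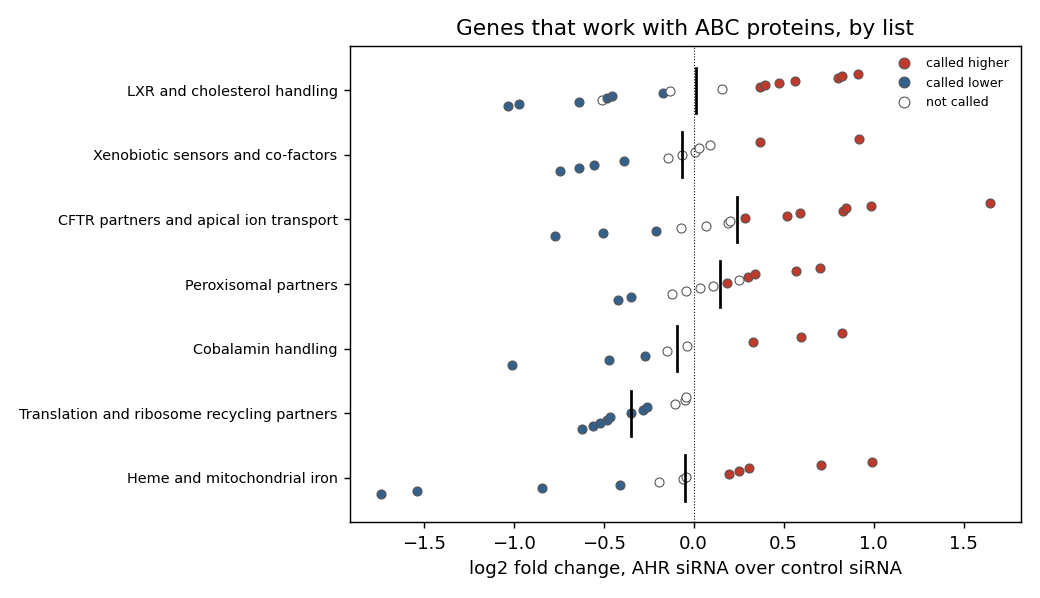
Log2 fold change of AHR siRNA over control siRNA for the tested genes of 7 lists, 1 point per gene, filled red where called higher and blue where called lower. Black bars are list medians, lowest at -0.35 for translation and ribosome recycling partners and highest at 0.24 for CFTR partners.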

How the data were processed

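The authors deposited 1 table of raw counts per library, whole numbers per versioned Ensembl gene ID. The tools were TopHat2 2.0.11, TopHat and HTSeq and the builds hg19 and GRCh37, per the submitters' processing notes, which give no roles. The sources used here state neither strandedness nor what was done with multi-mapping reads, and the tables hold no coordinates. The versions of the gene IDs leave the build behind the counts uncertain, so exon lengths and shared exon bases, taken from GENCODE 29 (GRCh38), may differ from those that were counted. Samples were grouped by their titles. Counts were tested with edgeR 4.0.16 in R 4.3.3 (filterByExpr, TMM, glmQLFit and glmQLFTest, group as the only term), with Benjamini-Hochberg adjustment over 14900 genes. CPM values are TMM-scaled, except the summed markers, which are per library total. The SE is the size of the log2 fold change divided by the square root of F, and intervals use it with the test's degrees of freedom. Percent of control is the fitted fold. The fit was tested on simulated data. Intervals cover the spread between libraries only. Symbols came from a gene name table and GENCODE 29, and promoters from RefSeq (GRCh38.p14).

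Values in every library are given for members called at a fold of at least 1.5 with a mean of at least 1 CPM, for the 3 most abundant uncalled members, and for some others chosen after their values were seen (ABCA1, ABCB1, ABCE1, ABCB6 and ABCD2). In each list the 3 called genes with the smallest p are named, and NR1I2 was added after its value was seen. A few list genes are not reported here. The members and lists were chosen with earlier results of these data known. Alternatives were other scalings (DESeq2 size factors, upper-quartile factors, library totals), other filters, the Wald test of DESeq2 1.42.0, limma-voom (limma 3.58.1), a replicate block, each library left out, and the 20 most abundant genes left out.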

Additional observations from a re-analysis of the deposited data

How the results depend on the processing

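The 15 calls among the ABC genes kept their direction and their call in all 15 alternatives. The number called lower was 8 throughout. The number called higher was 7 to 8 without 1 library and 9 with upper-quartile factors. It was 11 with library totals alone, where the median of all genes moved to 0.15. The median of the members was 0.21 with upper-quartile factors and 0.27 with library totals alone, and it ran from 0.0065 to 0.21 with 1 library left out, lowest without control siRNA replicate 1. Reversed signs were found only in genes that were not called. With 1 library left out, ABCA2 ran from -0.057 to 0.23 and ABCA7 from -0.020 to 0.20 (both lowest without control siRNA replicate 1), ABCB4 from -0.089 to 0.38 and ABCB9 from -0.14 to 0.023. With library totals alone, ABCB8 was at 0.0094 and ABCB9 at 0.10, and with upper-quartile factors ABCB9 was at 0.032. The cause was not tested. Whether the replicate numbers in the titles pair the samples could not be decided. Deviations from the group means correlated at 0.193, -0.0405 and 0.154 for numbers 1, 2 and 3. With 3 libraries a group, the deviations within a group depend on each other, and so do these correlations. With the replicate block 7 members were higher and 8 lower, as without it, and over all genes 4788 were higher and 4810 lower, against 4474 and 4479 without it. Of the AHR siRNA libraries, replicate 1 correlated best with its own number, and replicates 2 (0.0602 with control siRNA replicate 1) and 3 (0.160 with control siRNA replicate 2) did not. Low counts limit ABCA1, ABCA3, ABCB4, ABCC6 and ABCG1.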
